A study of Mus musculus with 32 samples.

Results

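The 4 genes of the PSD-95 family (Dlg1, Dlg2, Dlg3 and Dlg4) and the 4 SAPAP genes (Dlgap1, Dlgap2, Dlgap3 and Dlgap4) were taken by symbol from a table of reads on the 3′UTRs of 44081 genes, and their 46 features were taken from a table of 74532 individual 3′ ends. The RNA came from 16 single hippocampal neurons of C57BL/6 mice, prepared at embryonic day 18 and cultured for 15 days. The dendrites and the soma of each neuron were collected into separate tubes, which gave 16 dendrite and 16 soma libraries paired by neuron. Both libraries of a neuron went through the same number of rounds of aRNA amplification, a linear amplification by in vitro transcription that starts at the poly-A tail, with 3 rounds for neurons 1 to 4 and 2 rounds for neurons 5 to 16. The labels name no treatment, and they do not say which neurons shared an embryo or a culture, so the spread given here is the spread between neurons.

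PSD-95, the product of Dlg4, is the best known scaffold of the postsynaptic density, the protein layer under excitatory synapses on dendrites. Its PDZ domains hold NMDA receptor tails, the auxiliary subunits of AMPA receptors and adhesion proteins, while its guanylate kinase domain binds the SAPAP proteins (also called GKAPs), which in turn connect to the Shank and Homer scaffolds. Dlg1 encodes SAP97, Dlg2 encodes PSD-93 (also called chapsyn-110) and Dlg3 encodes SAP102, which is prominent in young neurons. Dlg4 and Dlgap3 RNAs have been described in dendrites, where local translation could supply scaffold protein near synapses.

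Dendrite libraries were smaller by their median, with 646521 to 6954420 reads on 3′UTRs (median 1605714), than soma libraries, with 925525 to 21169974 (median 6165691). Levels are given as CPM (counts per 1000000 reads on the genes tested) after TMM scaling, a method of edgeR that evens out the composition of libraries. Mitochondrially encoded genes took 2.39 to 35.8% of the dendrite reads and 0.277 to 8.13% of the soma reads. Neuron markers were present in all 32 libraries, with a summed level of Map2, Tubb3, Snap25 and Rbfox3 of 1781 to 9107 CPM in dendrites and 2177 to 4872 CPM in somas. The interneuron markers Gad1, Gad2 and Slc32a1 were high as well: at least 2 of them had 10 or more reads in all 16 dendrites and all 16 somas, and their summed level had a median of 4033 CPM in dendrites and 9639 CPM in somas. The pyramidal list (Slc17a7, Camk2a, Neurod6, Neurod2 and Grin1) had medians of 262.5 and 107.7 CPM. The 5 astrocyte markers summed to 0 to 663.5 CPM in dendrites and 0 to 146.3 CPM in somas, and the microglia, oligodendrocyte and endothelial lists had medians of at most 8.30 CPM in either compartment, with Cldn5 at 0 in all libraries. Single libraries reached 384 CPM for microglia (dendrites of neuron 13), 162 for oligodendrocytes (dendrites of neuron 1) and 129 for endothelial cells (soma of neuron 12). The part of these levels in the results below was not tested. The dendrites of neuron 15 had the fewest genes at 10 or more reads (1570, against 9871 in the richest dendrite sample).

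Because the amplification starts at the poly-A tail, reads gather at the 3′ ends of transcripts, and the end of a gene is where its counts come from. The farthest annotated 3′ end of a protein-coding transcript is shown for the 5 members whose use of 3′ ends could be tested below. The last 30 bases of each are given on the plus strand (GENCODE M21, GRCm38, the same assembly as mm10), all within the last exon, with the poly-A signal AATAAA or its common variant ATTAAA in capitals:
Dlg2, chr7:92449218-92449247: taaaacattttttactttatagcaaaatta
Dlg3, chrX:100818379-100818408: tatattttttAATAAAtgatagttgcaatg
Dlg4, chr11:70047493-70047522: actgcttttaATTAAAaaaaATTAAAttca
Dlgap1, chr17:70821384-70821413: attAATAAAataatcaatgcacttctttca
Dlgap4, chr2:156764334-156764363: tgttgtgagAATAAAtgaggtaacgtgtaa

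Searched on the transcript strand only, either hexamer was in this window for 6 of the 8 members (AATAAA in 5, ATTAAA alone in 1), against 62.6% of 21877 protein-coding genes. The windows of Dlg2 and Dlgap2 held neither. The 3′ end features are numbered and come without positions, so which numbered end lies at these windows is not known here.

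Dlg4 and Dlgap1 were the members found in every dendrite sample. Reads of both were present in 16 of 16 dendrites, a property of 8.01% of the 10880 genes tested, and reads of Dlgap1 were present in all 32 libraries (7.4% of the genes tested). Dlg2, Dlgap2 and Dlgap4 had reads in 15 dendrites, Dlg3 in 12, and Dlg1 and Dlgap3 in 9. In somas, Dlg2, Dlg3, Dlgap1, Dlgap2 and Dlgap4 had reads in all 16, Dlg4 in 15, Dlgap3 in 13 and Dlg1 in 9. At 10 reads or more the counts fell to 4 dendrites and 5 somas for Dlg1 and to 5 dendrites and 9 somas for Dlgap3. Dlg4 then had 14 dendrites, and Dlgap1 kept all 16. The number of members with reads in the dendrites of a neuron ranged from 3 to 8 with a median of 7, and in the soma from 6 to 8 with a median of 7.5. The lowest number was in the dendrites of neuron 15, which held reads of Dlg4, Dlgap1 and Dlgap2 alone. When both libraries of each neuron were thinned to the same number of reads, the counts of dendrites with reads were as before for all 8 members, and the counts of somas fell to 7 for Dlg1, 15 for Dlgap2 and 12 for Dlgap3.

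**Figure D1:**
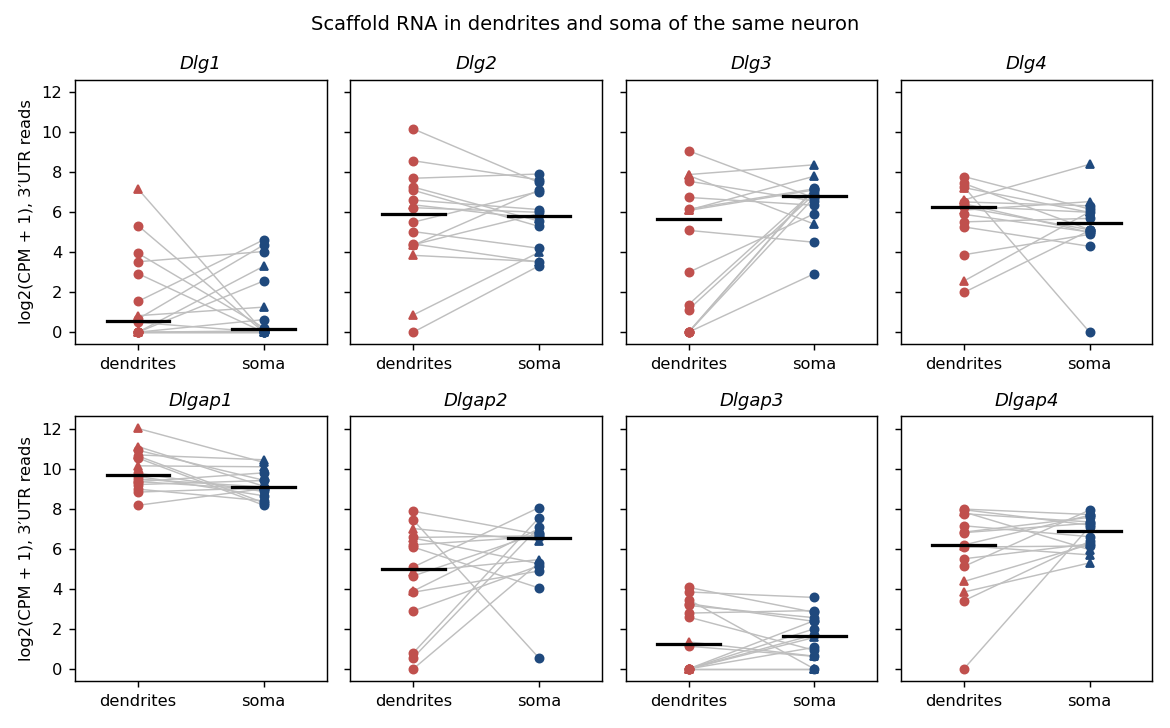
Level of each gene as log2(CPM + 1) in the dendrites (red) and the soma (blue) of 16 neurons, with a line joining the 2 libraries of a neuron, circles for 2 rounds and triangles for 3 rounds of amplification, and a black bar at the median. Dlgap1 sits highest in both compartments and never reaches 0, while lines of Dlg1, Dlg3 and Dlgap3 drop to 0 in 7, 4 and 7 dendrites.

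Dlg4 (chr11:70016942-70047522) had 2.97 CPM in its lowest dendrite sample, a median of 76.7 and a highest value of 221 CPM. In somas its values ran from 0 to 338 CPM with a median of 42.4. The dendrites were higher than the soma in 10 of 16 neurons, and the ranges overlapped almost wholly. In neuron 12 the soma held 0 reads of Dlg4, while its dendrites held 258 reads (154 CPM). By read depth alone a count of 0 there allows up to 1.64 CPM at 3 counts. This limit does not cover RNA lost before amplification. The opposite was seen in neuron 2, whose soma was the highest of all at 338 CPM against 97.5 CPM in its dendrites. The fitted log2 ratio of dendrites to somas (log2FC) of Dlg4 was 0.36 (SE 0.90, edgeR's quasi-likelihood test with Benjamini-Hochberg adjustment, adjusted p = 0.792), a difference smaller than its SE.

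Dlg3 (chrX:100767722-100818410) was the member with the largest absolute log2FC in the union counts with TMM scaling. On summed ends it had -2.16 and on exons -1.36, where Dlgap2 was farther from 0, and without the neuron block it had -0.29. Its somas all held reads, from 6.60 to 332 CPM with a median of 113 CPM, whereas its dendrites ran from 0 to 540 CPM with a median of 50.3. Levels were higher in the soma of 11 neurons and in the dendrites of 5, so the direction was not shared by all cells. The dendrites of neurons 10, 11, 15 and 16 held 0 reads although their somas held 1894, 1180, 61 and 1609. In these dendrites a count of 0 allows at most 0.604 to 2.23 CPM by read depth alone, without RNA lost before amplification. By contrast the dendrites of neuron 9 held 3388 reads (540 CPM), the highest Dlg3 level of the 32 libraries, against 104 CPM in its soma. Its log2FC was -2.24 (SE 1.20, adjusted p = 0.193, edgeR).

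Dlg2 (chr7:90476672-92449247) had a median of 59.4 CPM in dendrites (0 to 1155 CPM) and 55.1 CPM in somas (8.99 to 241 CPM). The highest dendrite sample was that of neuron 16, with 1558 reads, and the next reached 383 CPM. Dendrites were higher in 10 neurons and somas in 6, and the log2FC was -0.052 (SE 0.79, adjusted p = 0.969, edgeR). Dlg1 (chr16:31663443-31875129) was the sparsest of the PSD-95 family in this table, with medians of 0.491 CPM in dendrites and 0.107 CPM in somas. Its reads fell in both compartments of 5 neurons, in the dendrites alone of 4 and in the soma alone of 4, and in 3 neurons there were none. These splits rest on a union count that held far fewer Dlg1 reads than the other counts, and on 3′ ends the same neurons fell into 8 with reads in both compartments, 3 with dendrite reads alone, 5 with soma reads alone and 0 with none. The 3 neurons without union reads, neurons 3, 15 and 16, had 60 soma, 1362 soma and 422 dendrite reads on ends. The highest value was 143 CPM, in the dendrites of neuron 1, whose soma held 0 reads. The log2FC of Dlg1 was -0.061 (SE 1.17, adjusted p = 0.977, edgeR).

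Dlgap1 (chr17:69969073-70821413), which encodes SAPAP1 (GKAP), had more union reads than any other member in all 32 libraries. On exons this did not hold in the dendrites of neuron 16, with 2 reads of Dlgap1 against 1558 of Dlg2. Its levels ran from 291 to 4198 CPM in dendrites with a median of 841, and from 292 to 1416 CPM in somas with a median of 541. Dendrites were higher than the soma in 12 of 16 neurons, a count reached by 4.26% of the genes tested, and in all 4 neurons with 3 rounds of amplification. This count depended on the scaling: with DESeq2's size factors the dendrites were higher in 10 of 16 neurons and in 3 of the 4 with 3 rounds. It also rested on union counts: neuron 16 is among the 12, with 2028 union reads in its dendrites. On exons these dendrites held 2 reads, against 3198 in the soma. The 2 highest dendrite samples were those of neurons 1 and 4, at 4198 and 2243 CPM. Its log2FC was 0.73 (SE 0.43, adjusted p = 0.236, edgeR), or 1.65-fold, the highest of the 8 members and 2.22 above the median gene.

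Dlgap4 (chr2:156613705-156764363) had a median of 72.0 CPM in dendrites (0 to 255 CPM) and 118 CPM in somas (38.6 to 246 CPM). Somas were higher in 10 neurons and dendrites in 6, with a log2FC of -0.77 (SE 0.80, adjusted p = 0.501, edgeR). In neuron 15 the dendrites held 0 reads and the soma 1275. Dlgap2 (chr8:14095865-14847680) ran from 0 to 237 CPM in dendrites and from 0.461 to 268 CPM in somas, with medians of 30.7 and 91.3. It was higher in the soma of 11 neurons, with a log2FC of -1.26 (SE 1.10, adjusted p = 0.417, edgeR). Neuron 5 went the other way by a wide margin, with 225 reads in its dendrites and 1 in its soma. Dlgap3 (chr4:127169204-127237022), whose product SAPAP3 is abundant at striatal synapses, was low in both compartments, with medians of 1.37 CPM in dendrites (highest 15.9) and 2.12 CPM in somas (highest 10.9). Its dendrites were higher in 8 of the 14 neurons with reads, and the log2FC was -0.12 (SE 0.96, adjusted p = 0.943, edgeR).

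All 8 members were among the genes tested, and 0 of them passed the threshold of an adjusted p of at most 0.05 in either direction, against 0.827% of all genes that passed with more RNA in dendrites and 5.71% with more in somas (edgeR's quasi-likelihood test with neuron as a block). At an unadjusted p under 0.05 there were also 0 members, against 30.2% of all genes. DESeq2 with the same pairing called 1 member, Dlg3, higher in somas (log2FC -2.47, SE 0.78, adjusted p = 0.00498), in a fit where 46.2% of all genes passed toward the soma and 4.26% toward dendrites. The median log2FC was -0.088 over the 8 members and -1.49 over all genes tested, and 7 of the 8 members, all but Dlg3, lay above the median gene. This depended on the filter for reads in 16 libraries and on the block. Without the filter the median gene was at -0.17 and the members' median at -0.30, with Dlg2, Dlg4 and Dlgap1 alone above the median gene. Without the block the median gene was at -0.22, with Dlg3, Dlgap2 and Dlgap4 below it. In counts simulated from these libraries for 10833 genes, of which 200 were given a log2 change of 4, the test found 69 of the 200 and 3 of the unchanged genes.

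**Figure D2:**
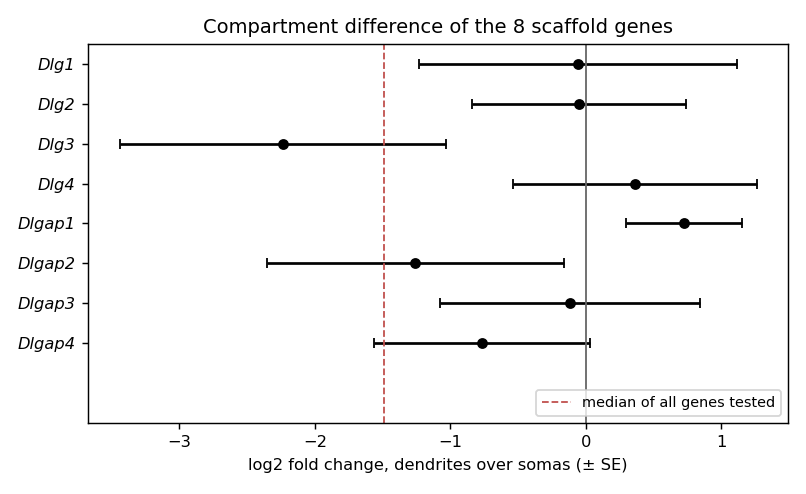
Log2 fold change of each member, dendrites over somas, with its SE from edgeR's fit over 16 neurons; the solid line marks 0 and the dashed red line the median of the 10880 genes tested, -1.49. Dlg3 lies to the left of the dashed line and the other 7 members to its right, with bars of 1 SE that reach across 0 for 5 members (Dlg1, Dlg2, Dlg4, Dlgap3 and Dlgap4).

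The scale on which the compartments were compared changed the picture for Dlgap1. When the dendrite libraries were rescaled so that the median gene lay near 0, Dlgap1 was called higher in dendrites (log2FC 2.26, SE 0.40, adjusted p = 8.64e-05, edgeR), as were 590 genes in all. Under that scaling Dlg4 was at 1.90 (SE 0.92, adjusted p = 0.234, edgeR) and Dlg3 at -0.71 (SE 1.24, adjusted p = 0.811, edgeR). A fold change of an amplified library gives the share of its RNA, and fewer copies in a dendrite cannot be told apart from a smaller amount of collected dendrite.

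The number of rounds is the technical split that the labels give, beside the dilution of the spike-in. In the 12 neurons with 2 rounds, Dlg4 had a log2FC of 0.82 (SE 1.17) with dendrites higher in 9, and in the 4 neurons with 3 rounds it had -0.95 (SE 1.21) with dendrites higher in 1. The difference between these effects was -1.96 (SE 2.09, edgeR interaction, unadjusted p = 0.354, adjusted p = 1). Dlg3 had -3.83 (SE 1.81, unadjusted p = 0.0385, adjusted p = 0.169, edgeR) with 2 rounds and -0.10 (SE 1.01) with 3 rounds, an interaction of 3.43 (SE 2.47, unadjusted p = 0.172, adjusted p = 1, edgeR). Dlgap1 was above 0 in both groups, at 0.63 (SE 0.61) and 1.18 (SE 0.54, unadjusted p = 0.0297, adjusted p = 0.75, edgeR). Of the 8 members 0 had an unadjusted p under 0.05 for this interaction, against 2.65% of all genes.

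How much of a gene's RNA lay in the dendrites was also described neuron by neuron, as the dendritic read fraction: dendrite reads as a percentage of dendrite plus soma reads, after division by DESeq2's size factors, in neurons with at least 10 such reads. All fractions used union counts. Dlgap1 had a fraction of 57.3% ± 16.6 (SD, n = 16), within 32.8% to 85.2%, and on these counts its spread was the smallest of the 8 members. Its value in neuron 16, 78.9%, rested on 2028 union reads in the dendrites. On exons these dendrites held 2 reads, against 3198 in the soma. Dlg4 had 52.0% ± 28.0 (SD, n = 16), from 4.36% in neuron 3 to 100% in neuron 12. Dlg2 had 45.6% ± 26.3 (SD, n = 16), Dlgap2 and Dlgap4 35.9% ± 30.5 and 35.8% ± 21.4 (SD, n = 16 each), and Dlg3 had 29.3% ± 30.4 (SD, n = 16). The 3′ ends of Dlgap2 held reads in 9 dendrites and 12 somas alone. Dlg1, by its union count, had 3 of its 9 neurons at 5% or less, 4 at 95% or more and 2 between. The extremes were not the same on 3′ ends: neuron 5, at 100%, held 45 dendrite and 390 soma reads there, and neuron 14, at 99.1%, held 7 and 19. Dlgap3 had 57.1% ± 29.2 (SD, n = 8), but 41.5% ± 34.8 (SD, n = 14) when neurons with 1 normalized read or more were taken. The fractions of these genes overlapped, and no test was made of their spread.

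**Figure D3:**
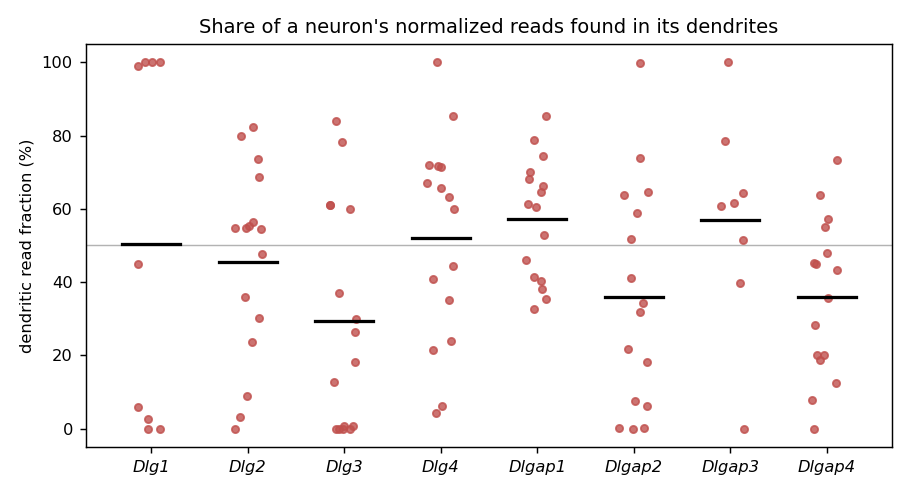
Dendritic read fraction in percent for each neuron (red points) with at least 10 normalized reads of the gene, and the mean (black bar). On union counts, Dlgap1 keeps within 32.8% to 85.2% in 16 neurons, whereas the points of Dlg1 gather near 0% and 100%.

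To set the members beside each other, reads were summed over each gene's 3′ end features, which are the last 500 nt of every end with closer ends merged, since each feature is of about the same length, although genes with more ends have more features. In dendrites Dlgap1 was first (median 738 CPM on 3′ ends), followed by Dlg4 (75.9), Dlgap4 (72.0), Dlg2 (56.8), Dlg3 (50.3), Dlg1 (2.68), Dlgap3 (1.37) and Dlgap2 (0.639). Dlgap1 exceeded the next gene in 16 of 16 dendrites, by 4.03 on the log2(CPM + 1) scale (two-sided exact permutation of signs, p = 3.05e-05, the smallest possible with 16 pairs, adjusted p = 0.000214 over 14 comparisons of neighbours). In somas the order was Dlgap1 (median 496 CPM), Dlgap4 (118), Dlg3 (112), Dlg2 (38.7), Dlg4 (31.3), Dlg1 (15.7), Dlgap2 (8.32) and Dlgap3 (2.12), and Dlgap1 again exceeded the next gene in 16 of 16 (2.24 on the log2 scale, the same exact test, p = 3.05e-05, adjusted p = 0.000214). The other 12 pairs of neighbours did not differ beyond their spread after adjustment, with the smallest adjusted p at 0.118, for Dlg4 over Dlg1 in somas (exact sign-flip permutation test).

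Of the 46 end features, 38 held reads: 10 of 12 in Dlgap1, 6 of 8 in both Dlg1 and Dlg2, 6 of 6 in Dlgap2, 5 of 5 in Dlg4, 2 of 3 in Dlg3, 2 of 2 in Dlgap4 and 1 of 2 in Dlgap3. Ends are named by their number in the deposited table. Dlg3 used nearly a single end, with end 1 holding 4371 of its dendrite reads and 12760 of its soma reads. Dlg4 was read mostly from end 2, which held 2174 dendrite and 4561 soma reads, while end 3 held 20 and 377. End 2 took a median of 99.5% of the Dlg4 reads in dendrites and 95.3% in somas. Dlg2 was read mostly from end 1, with 2979 dendrite and 7533 soma reads. Dlgap1 and Dlgap4 were divided between a pair of ends in both compartments.

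For each gene, the share of reads on the higher-numbered of its 2 leading ends was compared between dendrites and soma of the same neuron, where both held at least 10 reads on these ends. The leading ends had the largest sums of shares of the gene's reads over libraries with at least 10 reads of it. They need not hold the most reads: for Dlg2 the pair was ends 1 and 5. End 5 held 72 dendrite and 231 soma reads, and end 3 held 48 and 403. For Dlgap1 (ends 1 and 2) the share on end 2 was 53.1% ± 24.5 in dendrites and 56.2% ± 14.5 in somas (SD, n = 15 neurons, exact signed-rank test, two-sided, p = 0.804), and it was higher in the dendrites of 8 neurons and in the soma of 7. The dendrites of neuron 15 read all 2439 Dlgap1 reads from end 1 while its soma had 70.2% on end 2, and neuron 12 was reversed, with 79.7% on end 2 in dendrites and 25.7% in the soma. For Dlgap4 (ends 1 and 2) the share on end 2 was 54.2% ± 34.8 in dendrites and 48.6% ± 18.3 in somas (SD, n = 15, exact signed-rank test, p = 0.561). In dendrites of neurons 10, 12 and 13 it was 100%, against 48.3%, 77.3% and 37.6% in their somas, while in neuron 14 it was 4.76% against 87.3%. The mean difference, dendrites minus somas, was 5.64 percentage points. Leaving out 1 neuron gave 1.59 (without neuron 13) to 11.9 (without neuron 14). For Dlg4 (ends 1 and 2) the share on end 2 was 91.1% ± 27.5 and 98.8% ± 3.58 (SD, n = 13, exact signed-rank test, p = 0.461), and the dendrites of neuron 14, with all 70 reads on end 1, were the single sample below 87.0%. Over all libraries Dlg4 end 1 held 81 dendrite and 89 soma reads. End 3, with 20 and 377, was not in the pair, and its share was not tested.

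**Figure D4:**
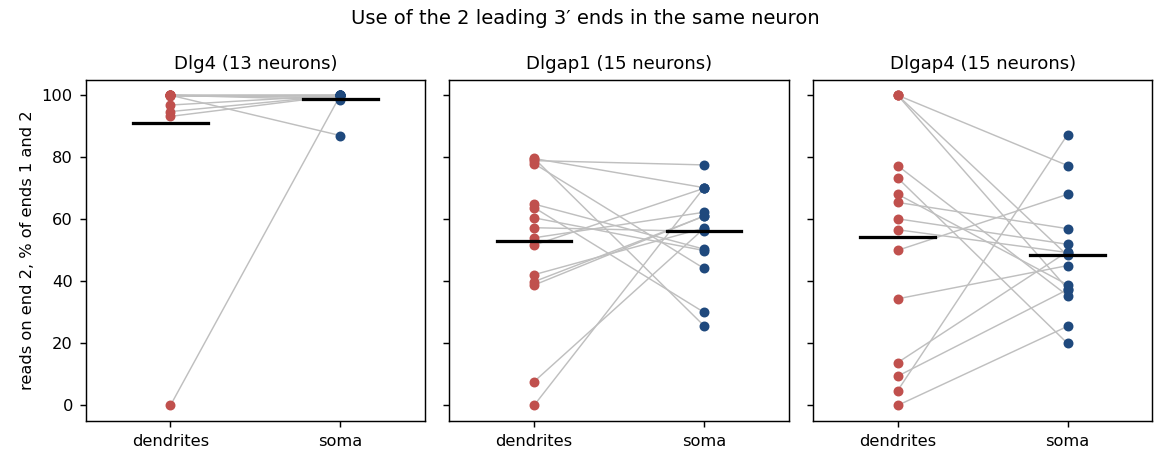
Reads on end 2 as a percentage of the reads on ends 1 and 2, in the dendrites (red) and the soma (blue) of the same neuron, joined by a line, with the mean as a black bar. The Dlgap1 and Dlgap4 lines run in both directions in 15 neurons each, and 1 dendrite sample of Dlg4 lies at 0%.

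The test could be made for Dlg2 and Dlg3 as well (p = 0.625 and p = 1, exact signed-rank test, n = 13 and n = 10 neurons), where the second end held 8.18% ± 25.2 and 0.0901% ± 0.285 of the dendrite reads and 4.93% ± 14.5 and 2.10% ± 6.65 of the soma reads (SD). Single neurons carried these means: without neuron 14 the Dlg2 shares were 1.28% and 1.00%, and without neuron 6 both Dlg3 shares were 0%. The Dlg4 difference likewise was -0.0077 percentage points without neuron 14, against -7.70 with it. None of the 5 members tested had a p under 0.1, the level of the study, which 8.44% of the 3508 genes tested had, and after adjustment over all genes 0 genes and 0 members passed at 0.05 (296 genes were under 0.1 before it). For Dlg2 and Dlg3 a p under 0.1 was out of reach, since neurons without a difference drop out of the test. Their shares were higher in the dendrites of 2 and 0 neurons and in the soma of 2 and 1. In the neurons with 2 rounds alone, the share of Dlg4 on end 2 differed by -11.4 percentage points, dendrites minus somas (n = 10 neurons, exact signed-rank test, p = 0.0938, adjusted p = 1, where 8.02% of 2767 genes had p under 0.1), and neuron 14 supplied most of this difference. Dlg1 and Dlgap2 had fewer than 5 neurons with enough reads in both compartments, and Dlgap3 had reads on a single end.

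The way of counting mattered for Dlg1 and Dlgap2. Dlg1 had 878 reads over all libraries in the union of its 3′UTR regions but 4477 on its 3′ ends and 4243 on its exons. Its end 2 alone held 612 dendrite and 3087 soma reads. Dlgap2 had 14412 reads in the union, 1954 on the ends and 2092 on exons, and its reads reached 15 dendrites in the union against 6 on exons. A union count under 0.5 times the end count was found for 0.94% of the 10954 genes with at least 500 reads on ends, and one over 2 times it for 6.46%. On summed ends, a comparison chosen after seeing the data, the log2FC was -1.66 for Dlg1 (SE 1.70, adjusted p = 0.482, edgeR) and -2.56 for Dlgap2 (SE 1.59, adjusted p = 0.248, edgeR), and on exons it was -1.59 (SE 1.66) and -2.79 (SE 1.77). The other members had union counts of 1.00 to 1.20 times their end counts and 0.86 to 1.04 times their exon counts.

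**Figure D5:**
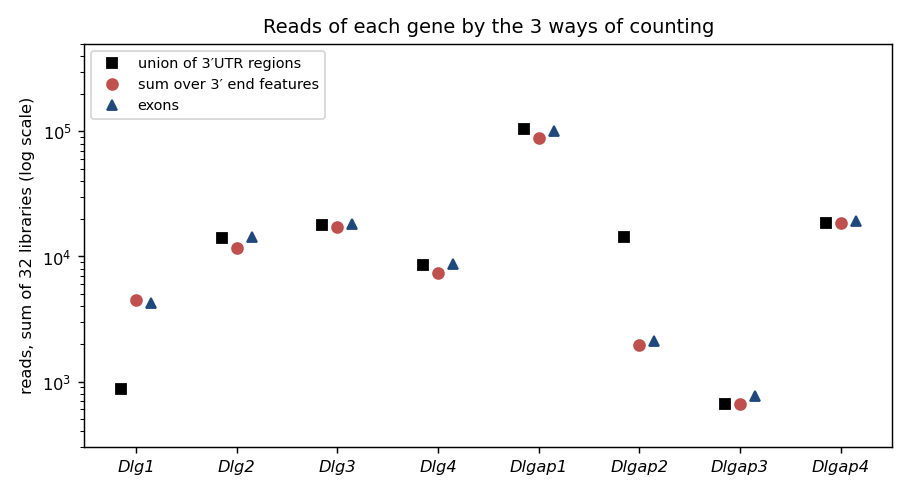
Reads of each member summed over 32 libraries (log scale), counted on the union of its 3′UTR regions (black squares), on its 3′ end features (red circles) and on its exons (blue triangles). The 3 counts lie close together for 6 members, while for Dlg1 the union count is the lowest (878 against 4477 on ends) and for Dlgap2 the highest (14412 against 1954).

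Single libraries also differed between the counts. The dendrites of neuron 16 had 2028 Dlgap1 reads in the union and 1921 on end 9, but 2 on exons, and end 9 held 1 read in all other dendrites together. The dendrites of neuron 14 had 70 Dlg4 reads in the union, all on end 1, and 0 on exons.

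Binding partners and enzymes of the scaffolds were read from the same fit, and in none of the lists was a gene called in either direction (edgeR's quasi-likelihood test with Benjamini-Hochberg adjustment, at 0.05). Of 8 partners of SAPAP proteins, 7 were tested, with a median log2FC of 0.35, and all 7 lay above the median gene. Shank3, a scaffold that binds SAPAPs by its PDZ domain, had 2.33 (SE 1.01, unadjusted p = 0.0253, adjusted p = 0.119, edgeR) and Shank2 had 1.49 (SE 0.93), while Homer1 and Shank1 had -0.63 (SE 1.00) and -0.55 (SE 1.40). Of 12 partners of PSD-95 in the postsynaptic density, 10 were tested (median -0.77, 7 above the median gene). Among them the kinesin Kif1b had 1.00 (SE 0.56) and the Arf exchange factor Iqsec1 0.56 (SE 1.49), and the spine protein Kalrn had -1.79 (SE 0.95) and the scaffold Cnksr2 -2.70 (SE 1.62).

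Of 15 other MAGUK scaffolds and their Lin7 partners, 14 were tested (median -1.17, 8 above the median gene). Mpp3 and Mpp7 had the smallest p above 0, at 2.01 (SE 1.21) and 1.07 (SE 1.23), and Mpp1 and Magi1 the smallest below it, at -3.87 (SE 1.31, adjusted p = 0.0598, edgeR) and -2.68 (SE 1.07, adjusted p = 0.0955, edgeR). Of 15 receptors and adhesion proteins that PSD-95 binds, directly or through partners, 14 were tested (median -1.26, 8 above the median gene). The auxiliary AMPA receptor subunit Cacng2 (stargazin) was the only one with a fitted value above 0, at 0.24 (SE 0.65), and the NMDA receptor subunit Grin2a and neuroligin Nlgn3 had -2.13 (SE 0.85, adjusted p = 0.0956, edgeR) and -3.11 (SE 1.39, adjusted p = 0.129, edgeR). Of 9 enzymes that palmitoylate, depalmitoylate or phosphorylate PSD-95 or its relatives, 7 were tested (median -1.54, 3 above the median gene), from 0.44 (SE 0.74) for the depalmitoylase Abhd17a to -2.61 (SE 1.02) for Abhd17b and -2.76 (SE 1.32) for the palmitoyltransferase Zdhhc8. Dlg5, a relative outside the PSD-95 family, had -4.23 (SE 1.79, adjusted p = 0.113, edgeR), and Dlgap5, which acts in mitosis, had too few reads to be tested.

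The genes whose levels followed Dlg4 most closely over the 32 libraries, after the mean of each compartment was removed, were Nav3 (Pearson r = 0.747), Rnf150 (0.643), Rpl27a (0.635), C78339 (0.635) and Pde2a (0.623), out of 6815 genes with reads in at least 24 libraries. These values are a description, over libraries that share neurons and differ in depth. Rpl27a is a ribosomal protein gene with near-identical copies in the genome, so its counts are uncertain.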

How the data were processed

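The authors trimmed reads, aligned them to mm10 with STAR 2.4.0 and counted uniquely mapped reads by strand with VERSE. All deposited values are raw read counts without normalization or molecular identifiers: on the union of each gene's 3′UTR regions, on 3′ ends and on exons. Counting error was not used, and precision came from the spread between neurons. The members and gene lists were chosen with earlier results of these data known.

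The 10880 genes that had 1 read or more in no fewer than 16 libraries were fitted with edgeR 4.0.16 in R 4.3.3 (TMM, quasi-likelihood, robust fit, neuron as block). A gene was called where its p, adjusted after Benjamini-Hochberg over all genes, was 0.05 or less. DESeq2 1.42.0 was an alternative. Each SE was the size of the log2 fold change over the square root of its F. Shares of 3′ ends were compared with exact signed-rank tests (Python 3.11.15, SciPy 1.17.1) in genes with at least 5 neurons of 10 reads in both compartments.

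The pairing comes from the cells, both compartments being taken from the same neuron. Across genes, deviations from compartment means correlated at 0.0887 ± 0.0772 (SD, n = 16) within neurons and at -0.00559 ± 0.0526 (SD, n = 240) between neurons. Of the other partners and enzymes, the text names the 2 genes of each list with the smallest p in each direction. The edgeR and signed-rank tests were tested on simulated data. Positions of the numbered ends were not given in the sources used here.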

Additional observations from a re-analysis of the deposited data

How the results depend on the processing

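Members called were 0 in both directions, except 1 higher in dendrites with the median gene near 0 (Dlgap1) and 1 higher in somas with DESeq2 (Dlg3). Dlg3 stayed below 0 and Dlgap1 above 0 in every setting. All genes higher in dendrites and in somas numbered 590 and 90 with the median gene near 0, 15 and 143 without the filter, 43 and 354 with 2 rounds, 4 and 1 with 3 rounds, and 463 and 5029 with DESeq2. Without the replicate block that pairs compartments, they were 157 and 77. Genes higher in somas were 1008 with RLE size factors, 387 with library totals over all genes, 181 at 10 reads and 257 on exons. Leaving out each neuron gave 56 to 120 higher in dendrites and 130 to 990 in somas, the lowest without neurons 4 and 16 and the highest without 15 and 5.

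Uncalled values of log2FC changed sign in these cases, and the cause was not tested. With the median gene near 0, Dlg1 had 1.23, Dlg2 1.48, Dlgap2 0.28, Dlgap3 1.37 and Dlgap4 0.77. With library totals over all genes, Dlg1 had 0.16, Dlg2 0.21 and Dlgap3 0.18. Without the block, Dlg1 had 1.53, Dlg2 0.94 and Dlgap3 0.56. On exons, Dlg2 had 0.35 and Dlgap3 0.66, and on summed ends Dlg2 had 0.23. At 10 reads Dlg2 had 0.28, and Dlg1 and Dlgap3 could not be fitted. With 2 rounds Dlg1 had 0.029 and Dlg2 0.25, with 3 rounds Dlg1 had 0.081 and Dlg4 -0.95, and with DESeq2 Dlg1 had 0.46. Leaving out a neuron gave -0.69 to 0.57 for Dlg1, -0.20 to 0.44 for Dlg2 and -0.45 to 0.47 for Dlgap3, and -7.13 to 1.74 percentage points for the Dlgap1 end share. The other members kept their sign when a neuron was left out. Their log2FC was -2.66 to -1.52 for Dlg3, 0.25 to 0.88 for Dlg4 and 0.64 to 1.09 for Dlgap1. It was -1.58 to -0.62 for Dlgap2 and -0.94 to -0.28 for Dlgap4. Of the end shares, 1 member (Dlg4) had p under 0.1 with 2 rounds (8.02% of all genes there, 0 after adjustment). Library totals and summed ends were chosen after seeing the data. Dlg1 and Dlgap3 had medians of at most 15.5 reads per library in the union counts.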
